A study of Mus musculus with 25 samples.

Results

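The comparison set 5 fecal libraries of ovariectomized mice given PBS (group OVX+PBS) against 5 of ovariectomized mice without it (group OVX), 10 of the 25 libraries of the study. The members were chosen by group label alone, and both are control groups of operated animals. Feces of C57BL/6 mice were profiled by full-length sequencing of the bacterial 16S rRNA gene on a PacBio instrument. OVX, the removal of the ovaries, was shared by all 10 animals, so the groups differed in the labels only by PBS, a buffered saline with no nutrient or drug in it. The labels give no age, and no route, amount or duration of the PBS, and their sex field reads male throughout, at odds with ovariectomy. The remaining groups (Sham, OVX+GEX and OVX+FMT) entered the model fit and are given only where a value needs them.

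The mouse hindgut is filled by strict anaerobes. Muribaculaceae and Bacteroides cleave plant and host glycans, clostridia of the Oscillospiraceae and Lachnospiraceae ferment fibre and sugars to acetate and butyrate, lactobacilli turn sugars into lactate, and acetogens such as Blautia can use hydrogen and carbon dioxide to form acetate. A vehicle group shows what the community looks like when the carrier fluid is given without an active agent.

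Counts were given per amplicon sequence variant (ASV), a distinct 16S sequence left after error removal, with a name at each taxonomic rank. Totals ran from 8558 to 21751 counts per library in OVX+PBS and from 9189 to 11252 in OVX, and the highest total was that of OVX+PBS replicate 1. Of the 1555 ASVs of the study, 961 occurred in these 10 libraries. The gut genera Duncaniella, Ligilactobacillus, Akkermansia, Bacteroides and Kineothrix had counts in all 10, and 0 of 10 genera known as reagent contaminants had any. A share below is the percent of a library's counts, so a rise of 1 taxon lowers the shares of the others, and no measure of bacterial load was analysed here.

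No taxon passed the test for a difference between the groups at any rank. EdgeR's quasi-likelihood test with Benjamini-Hochberg adjustment at 0.05 called 0 of 81 genera (0%). Before adjustment 11 (13.6%) had a p under 0.05, of which 4 (4.94%) were higher and 7 (8.64%) lower in OVX+PBS. DESeq2 called 1 genus (1.23%) and limma on centred log-ratios 0 (0%), with 7 at an unadjusted p under 0.05 in each. Among families edgeR called 0 of 28 (0%), with 6 (21.4%) before adjustment, 2 higher (7.14%) and 4 lower (14.3%); DESeq2 called 0 and limma 1 (3.57%). Among 379 ASVs edgeR called 0 (0%), with 94 (24.8%) before adjustment, 23 of them higher (6.07%) and 71 lower (18.7%) in OVX+PBS; DESeq2 called 5 (1.32%) and limma 0 (0%). Under other edgeR settings the ASV count was 2 of 379 with TMMwsp scaling (0.528%; ASV_70 and ASV_80), 4 of 379 with only these 10 libraries (1.06%; ASV_47, ASV_62, ASV_77 and ASV_80), 6 of 1555 without a filter (0.386%; ASV_21, ASV_47, ASV_62, ASV_77, ASV_78 and ASV_80) and 2 of 236 with a filter at 10 counts (0.847%; ASV_70 and ASV_80).

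Among genera and ASVs more estimates were lower than higher in OVX+PBS, and among families fewer. Of the 81 genera 52 (64.2%) had a lower and 26 (32.1%) a higher estimate, and 3 had no counts in either group. The median log2 fold change over all genera was -0.47, and it was -0.65 with plain library totals and 0.05 by limma on centred log-ratios, where 41 genera were higher and 40 lower. Among ASVs 236 (62.3%) had a lower and 130 (34.3%) a higher estimate, against 179 and 200 by limma. Of the 28 families 16 (57.1%) had a higher and 10 (35.7%) a lower estimate, with a median of 0.19, but 7 and 19 with plain library totals (median -0.40). Log2 fold changes below are given as fitted, against 0 and not against these medians, so an estimate near -0.47 for a genus is that of the median genus. Each rank was scaled in its own fit, so the estimate of a genus and those of its ASVs are not directly comparable.

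**Figure D1:**
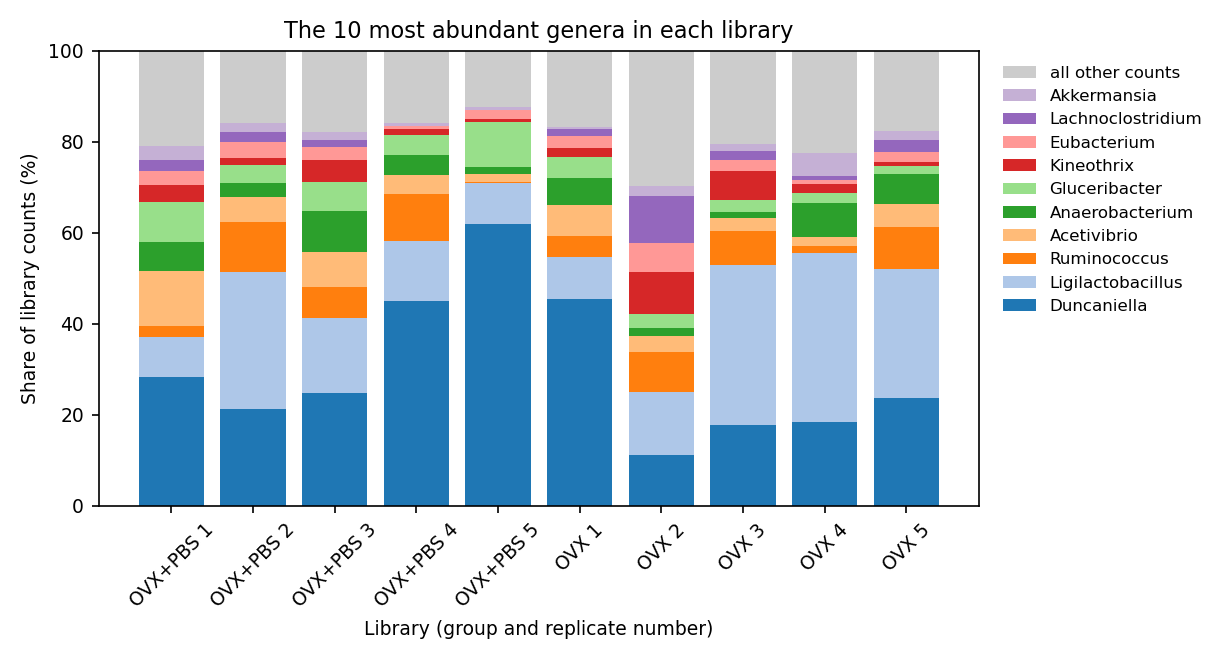
Stacked bars give the share of each library's counts (percent) held by the 10 most abundant genera over the 10 libraries, with all other counts in grey. Duncaniella took from 11.3% (OVX replicate 2) to 61.9% (OVX+PBS replicate 5).

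The 10 most abundant genera held 81.0% of the counts on average. Duncaniella, a glycan-degrading anaerobe and the 1 genus of the Muribaculaceae here, came first. It held 28.2%, 21.3%, 24.7%, 44.9% and 61.9% of the counts in OVX+PBS replicates 1 to 5, and 45.4%, 11.3%, 17.8%, 18.3% and 23.6% in OVX replicates 1 to 5. All 5 OVX+PBS libraries lay above the OVX median, but 4 of them lay below the highest OVX library, replicate 1. The edgeR log2 fold change was 0.64 with plain library totals and 1.07 (SE 0.70, adjusted p = 0.435) in the main fit. Leaving out OVX+PBS replicate 5 lowered the main estimate to 0.56, and leaving out OVX replicate 1 raised it.

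Duncaniella was not 1 unit at the level of sequence variants. ASV_1 and ASV_16, both named Duncaniella freteri, kept a ratio of 2.32 to 3.53 to each other over the 10 libraries. ASV_7, ASV_8, ASV_10 and ASV_12 had nearly equal counts, the highest being 1.04 to 1.33 times the lowest in each library, although 3 are named Duncaniella dubosii and ASV_12 is named Duncaniella freteri. These sets were formed after their values were seen, and they are described without a test. Bacterial genomes often carry several 16S copies that differ slightly, so ASVs that keep a fixed ratio may belong to the same cells and are not independent observations.

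The ASV_1 and ASV_16 set was even across OVX+PBS, at 13.4%, 10.4%, 11.9%, 12.3% and 9.41% in replicates 1 to 5. In OVX it held 9.62%, 3.73%, 4.44%, 7.48% and 4.89%, so that only OVX+PBS replicate 5 fell below the highest OVX library. The mean was 11.5% ± 1.56 in OVX+PBS and 6.03% ± 2.46 in OVX (SD, n = 5). ASV_1 alone, the most abundant ASV of the 10 libraries, held 8.54% ± 1.35 and 4.55% ± 1.80, with an edgeR log2 fold change of 0.81 (SE 0.51, adjusted p = 0.380).

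The set of ASV_7, ASV_8, ASV_10 and ASV_12 behaved otherwise. It held 12.7%, 8.79%, 10.3%, 19.8% and 38.2% in OVX+PBS replicates 1 to 5, and 30.7%, 6.25%, 11.98%, 7.70% and 16.96% in OVX replicates 1 to 5. The OVX range lay mostly inside that of OVX+PBS, and the mean was 18.0% ± 12.1 against 14.7% ± 9.86 (SD, n = 5). Each of the 4 ASVs had an edgeR log2 fold change between -0.01 and 0.16, with adjusted p-values of 1.0.

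A further pair, ASV_21 and ASV_78 of Duncaniella freteri, was seen in OVX+PBS replicates 4 and 5 and in no OVX library. Together they held 7.85% and 9.16% of those libraries, and 0 counts in OVX+PBS replicates 1 to 3. ASV_21 had 456 and 625 counts there and also occurred in OVX+GEX replicate 5 with 711 and OVX+FMT replicate 5 with 1169 counts. ASV_78 had 216 and 184 counts in OVX+PBS replicates 4 and 5, and 137 in OVX+FMT replicate 5. Both ASVs occurred in too few libraries for the edgeR filter. Without a filter edgeR called both (adjusted p = 1.76e-08 and 0.0362), on the counts of 2 OVX+PBS libraries. Without the pair, Duncaniella averaged 32.8% ± 12.6 in OVX+PBS against 23.3% ± 13.1 in OVX (SD, n = 5), where it was 36.2% ± 17.0 with it.

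**Figure D2:**
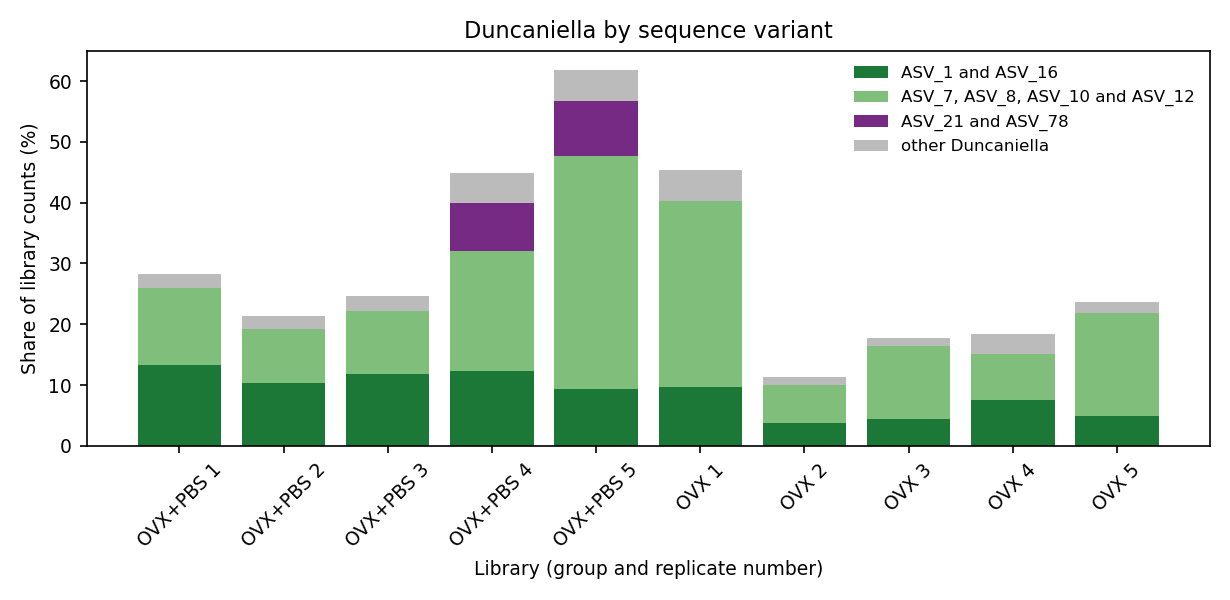
Stacked bars give the share of library counts (percent) held by Duncaniella sequence variants. The dark green set (ASV_1 and ASV_16) ran from 9.41% to 13.4% in OVX+PBS and from 3.73% to 9.62% in OVX, and the purple pair (ASV_21 and ASV_78) appears in OVX+PBS replicates 4 and 5 alone.

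Bacteroides, a genus of glycan degraders, was another Bacteroidetes genus with more counts in OVX+PBS; it was chosen after its values were seen. It consisted of 1 ASV, named Bacteroides caccae, a species known for mucin use. It held 1.86%, 0.942%, 1.92%, 3.03% and 3.35% in OVX+PBS replicates 1 to 5, and 1.84%, 0.957%, 0.631%, 0.889% and 0.809% in OVX replicates 1 to 5. The 4 highest values were those of OVX+PBS replicates 1, 3, 4 and 5, and replicate 2 lay inside the OVX range. The edgeR log2 fold change was 1.51 (SE 0.76, adjusted p = 0.336) in the fit of genera. The same counts gave 0.95 (SE 0.78, edgeR adjusted p = 0.627) in the fit of ASVs. With plain library totals the genus had 1.11, so the size of the estimate depended on the fit. OVX+PBS replicates 4 and 5, the highest in Bacteroides, were also the highest in Duncaniella within their group.

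At the phylum level Bacteroidetes held 39.0% ± 18.3 of OVX+PBS and 24.7% ± 13.3 of OVX counts, and Firmicutes 58.3% ± 17.8 and 71.8% ± 12.6 (SD, n = 5; adjusted exact permutation p = 0.298 for both over 3 phyla). On the log2 scale, Firmicutes over Bacteroidetes came to 1.11, 1.74, 1.36, 0.06 and -1.10 in OVX+PBS replicates 1 to 5 and 0.10, 2.70, 2.06, 1.91 and 1.54 in OVX replicates 1 to 5. OVX+PBS replicate 5 had the lowest ratio of the 10 libraries, and in OVX replicate 1 stood below the other 4. The mean differed by -1.03 (exact permutation p = 0.159, adjusted p = 0.317 over 6 community measures). Without OVX replicate 1 the difference was -1.42 (exact permutation p = 0.0476, unadjusted). Without OVX+PBS replicate 5 it was -0.60 (exact permutation p = 0.325, unadjusted). Verrucomicrobia consisted of Akkermansia, the mucin degrader, at 1.61% ± 1.03 and 2.24% ± 1.72 (SD, n = 5; adjusted exact permutation p = 0.532).

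Gluceribacter, placed among the Lachnospiraceae by the deposited taxonomy, had the smallest edgeR p of all genera. It held 8.74%, 3.95%, 6.32%, 4.18% and 9.89% in OVX+PBS replicates 1 to 5, and 4.52%, 2.90%, 2.55%, 2.22% and 1.74% in OVX replicates 1 to 5. All 5 OVX+PBS libraries lay above the OVX median and 3 above the highest OVX library, replicate 1. The log2 fold change was 1.60 (SE 0.50) with an edgeR adjusted p of 0.162. By DESeq2 it was 1.79, with an adjusted p of 0.00395. Over the alternatives the adjusted p ran from 0.00395 to 0.459 and the log2 fold change from 1.21 to 1.95, so the direction held while the call rested on DESeq2.

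Gluceribacter was made up of 3 common ASVs, all named Gluceribacter canis, and 1 further ASV with 2 counts in the 10 libraries. ASV_14 had an edgeR log2 fold change of 1.12 (SE 0.62, adjusted p = 0.294), ASV_17 of 1.28 (SE 0.72, adjusted p = 0.294) and ASV_26 of 0.94 (SE 1.09, adjusted p = 0.859). DESeq2 called ASV_14 (adjusted p = 0.00243) and ASV_17 (adjusted p = 0.00556). ASV_26 had 0 counts in OVX+PBS replicate 5, where the other 2 ASVs were at their highest shares, and 0 in OVX replicate 5. Outside the comparison the genus averaged 5.14% in Sham, 3.48% in OVX+GEX and 3.85% in OVX+FMT, between the 2.79% ± 1.06 of OVX and the 6.62% ± 2.66 of OVX+PBS (SD, n = 5).

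**Figure D3:**
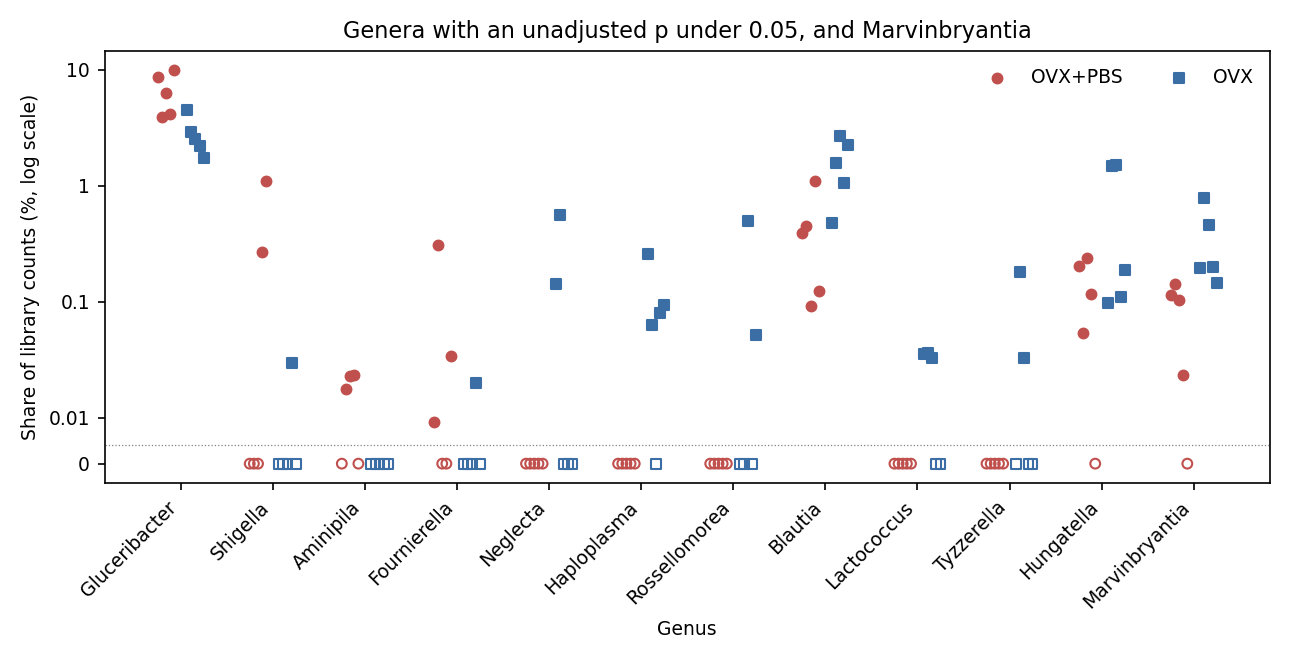
Points give the share of library counts (percent, log axis) for each OVX+PBS (red circles) and OVX (blue squares) library in the 11 genera with an unadjusted p under 0.05 and in Marvinbryantia; open symbols below the dotted line are libraries with 0 counts. Gluceribacter and Blautia have counts in every library, and for most of the others the groups differ by presence in a few libraries.

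Both acetogens tested were lower in OVX+PBS by estimate, and neither passed. Blautia held 0.391%, 0.453%, 0.0913%, 1.10% and 0.125% in OVX+PBS replicates 1 to 5 and 0.480%, 1.57%, 2.69%, 1.07% and 2.23% in OVX replicates 1 to 5. All OVX+PBS libraries but replicate 4 lay below the lowest OVX library, replicate 1. The log2 fold change was -1.72 (SE 0.66, edgeR adjusted p = 0.207). It moved with single libraries, to -1.02 without OVX replicate 5, -1.10 without OVX replicate 3, -1.15 without OVX+PBS replicate 5 and -2.46 without OVX+PBS replicate 4. Of its 8 tested ASVs 7 had a lower estimate, beside 62.3% of all ASVs tested.

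Marvinbryantia, a related acetogen, was the 1 genus of 81 whose libraries did not overlap on the lower side (1.23%), while 0 of 81 (0%) did so on the higher side. It held 0.115%, 0.142%, 0.103%, 0.0234% and 0 in OVX+PBS replicates 1 to 5 and 0.196%, 0.786%, 0.457%, 0.198% and 0.145% in OVX replicates 1 to 5. The gap between the groups was narrow, 0.142% against 0.145%, and rested on 16 and 14 counts. The log2 fold change was -2.18 (SE 1.21, edgeR adjusted p = 0.369), and -1.48 without OVX+PBS replicate 5. The acetogen list, Blautia and Marvinbryantia together, summed to 0.508% ± 0.397 in OVX+PBS and 1.96% ± 0.983 in OVX (SD, n = 5), with a median log2 fold change of -1.95 beside -0.47 over all genera.

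Several genera that were present in OVX had no counts in OVX+PBS, each carried by a few libraries. Haploplasma, a wall-less member of the Tenericutes, had 29, 7, 0, 8 and 9 counts in OVX replicates 1 to 5 and none in OVX+PBS. Set against 3 counts in each OVX+PBS library as a floor, this is at least 3.43-fold lower, or 2.05-fold without OVX replicate 1. The edgeR adjusted p was 0.162, and 0.0515 to 0.457 over 14 alternatives. Haploplasma met the filter of 5 libraries mainly through the 4 OVX libraries that held it. Without OVX replicate 1, 2, 4 or 5, and with the filter at 10 counts, it was therefore not tested. Its family Acholeplasmataceae, with the same counts, was the limma call among families (adjusted p = 0.0369, against 0.105 by edgeR). Neglecta had 16 and 62 counts in OVX replicates 1 and 2 and none elsewhere among the 10 libraries, at least 4.89-fold lower, but 1.24-fold without OVX replicate 2 (edgeR adjusted p = 0.162). Rossellomorea, of the Bacillaceae, had 46 and 5 counts in OVX replicates 3 and 5, at least 3.84-fold lower, a limit that rests on replicate 3, without which the OVX mean is below the floor (edgeR adjusted p = 0.169). For both, 3 of 5 OVX libraries were at 0 like OVX+PBS.

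Tyzzerella, a Lachnospiraceae genus, had 20 and 3 counts in OVX replicates 2 and 3 and 0 in OVX+PBS, at least 1.48-fold lower; without OVX replicate 2 its mean is below the floor and no limit remains (edgeR adjusted p = 0.276). Lactococcus, a lactic acid bacterium common in dairy products, had 4, 4 and 3 counts in OVX replicates 1 to 3 and 0 in the other 7 libraries; its mean is below the floor and no fold is given (edgeR adjusted p = 0.232). Hungatella, a clostridial genus, had counts in both groups. It held 0.202%, 0.0533%, 0.240%, 0.117% and 0 in OVX+PBS and 0.0978%, 1.47%, 1.52%, 0.109% and 0.187% in OVX replicates 1 to 5, so the difference lay with OVX replicates 2 and 3. The log2 fold change was -2.49 (SE 1.14, edgeR adjusted p = 0.276), and it was -1.23 without OVX replicate 3 and -1.69 without OVX+PBS replicate 5. Of its 9 tested ASVs 8 had a lower and 0 a higher estimate, beside 62.3% lower among all ASVs tested.

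The genera with higher estimates beside Gluceribacter were sparse. Shigella, an enteric genus that 16S sequences separate poorly from Escherichia, had 23 and 98 counts in OVX+PBS replicates 4 and 5, 3 in OVX replicate 4 and 0 in the other 7 libraries (edgeR adjusted p = 0.207). OVX+PBS replicates 4 and 5 were thus high in Shigella, in Duncaniella and in Bacteroides at once. Aminipila, a fermenter of the Family XIII clostridia, reached 2 counts in each of 3 OVX+PBS libraries and 0 in OVX, too few for a fold (edgeR adjusted p = 0.273). Fournierella had 35 counts in OVX+PBS replicate 2 and at most 3 in any other library (edgeR adjusted p = 0.276).

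None of the other abundant Firmicutes genera passed the test. Ligilactobacillus, the main lactic acid bacterium, held 8.87%, 30.04%, 16.6%, 13.2% and 9.01% in OVX+PBS replicates 1 to 5 and 9.36%, 13.7%, 35.2%, 37.1% and 28.5% in OVX replicates 1 to 5. OVX replicates 3, 4 and 5 and OVX+PBS replicate 2 were high, and the other 6 libraries lay between 8.87% and 16.6%. The log2 fold change was -0.45 (SE 0.55, edgeR adjusted p = 0.772).

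Among fibre-degrading clostridia, Acetivibrio held a mean of 6.25% ± 3.92 with PBS and 3.97% ± 1.87 without (log2 fold change 0.69, SE 0.52, edgeR adjusted p = 0.567). Ruminococcus had 6.14% ± 4.68 and 6.34% ± 3.17, and Anaerobacterium 4.93% ± 2.93 and 4.72% ± 2.82 (SD, n = 5), with edgeR adjusted p-values of 1.0 and 0.929. OVX+PBS replicate 5 was the lowest library in Ruminococcus (0.340%) and in Acetivibrio (1.75%). The whole list of 5 tested fibre-degrading clostridia had 3 higher and 2 lower estimates with a median of 0.03. The 2 lower were Ruminiclostridium (-0.66) and Lachnoclostridium (-1.46). Lachnoclostridium was listed as a whole genus, although it also holds ASVs named after Clostridium scindens.

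Kineothrix, a butyrate producer, took 2.37% ± 1.75 of the counts with PBS and 4.12% ± 3.57 without, and Eubacterium 2.44% ± 1.16 and 2.89% ± 2.09 (SD, n = 5; edgeR adjusted p = 0.589 and 0.997). Lachnoclostridium averaged 1.29% ± 1.16 and 3.47% ± 3.87 (log2 fold change -1.46, SE 0.99, edgeR adjusted p = 0.461). OVX replicate 2 held the highest share of the 10 libraries in all 3 genera, at 9.23%, 6.46% and 10.3%, and without it the log2 fold change of Lachnoclostridium was -0.48, and -0.66 without OVX+PBS replicate 5.

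Of the 10 butyrate producers tested 5 had higher and 5 lower estimates with a median of 0.01, and their summed share was 8.82% ± 3.06 in OVX+PBS and 10.8% ± 5.58 in OVX. The 22 Lachnospiraceae genera had 7 higher and 15 lower estimates (median -0.61), and the 18 Oscillospiraceae and Ruminococcaceae genera 8 and 10 (median -0.51), near the -0.47 of all genera; by limma these medians were -0.24 and 0.41, beside 0.05. None of these genera passed the edgeR threshold. The 4 Erysipelotrichaceae genera were divided 2 and 2 (median -0.51), and of 4 lactic acid bacteria and bifidobacteria 1 was higher, 2 lower and Bifidobacterium without counts (median -0.23); by limma both medians were 0.17. The listed amino acid fermenters of Family XIII had 2 of 3 genera higher (median 0.86). Sinanaerobacter, a tested genus of that family outside the list, had a lower estimate (log2 fold change -0.61). Of the mucus-associated genera 2 of 3 were higher (median 0.06), and of Bacteroidaceae with relatives 2 of 2 (median 1.23). Adlercreutzia, known for members that form equol, had a log2 fold change of -0.06, and sulfate reducers had 0 counts.

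Below the genus, the single ASVs with the smallest p-values differed mostly by presence. A minor variant of Ligilactobacillus murinus, ASV_70, had 12, 21, 44, 52 and 30 counts in OVX replicates 1 to 5 and none in any OVX+PBS library, which the same floor makes at least 11.1-fold lower. It was 1 of 2 ASVs of 379 (0.528%) that did not overlap on the lower side, and 0 of 379 (0%) did so on the higher side. The edgeR adjusted p was 0.0659, running from 0.000339 to 0.186 over the alternatives.

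ASV_70 was a small part of its genus where it was found. It made up 1.09% to 1.38% of the Ligilactobacillus counts in the 5 OVX libraries and 0.695% to 1.71% in the libraries of the other groups that held it, against 0 of 8694 Ligilactobacillus counts in OVX+PBS, which allows a share of up to 0.0345%, for counting error only. OVX+PBS replicate 2 had 3379 Ligilactobacillus counts and none of ASV_70, while OVX replicate 1 had 1053 and 12 of it. In the other 15 libraries ASV_70 was found in 11, all with at least 1454 Ligilactobacillus counts, and missing from 4 with at most 1218. The 6 main variants of the genus, ASV_2, ASV_3, ASV_5, ASV_6, ASV_9 and ASV_11, held 96.0% to 98.1% of it in OVX+PBS and 93.1% to 96.9% in OVX. Other minor variants were also missing in places, ASV_34 from 3 of 5 OVX+PBS libraries and 1 of 5 OVX libraries. Whether a 0 is absence of the strain or a step of the authors' error removal was not tested.

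**Figure D4:**
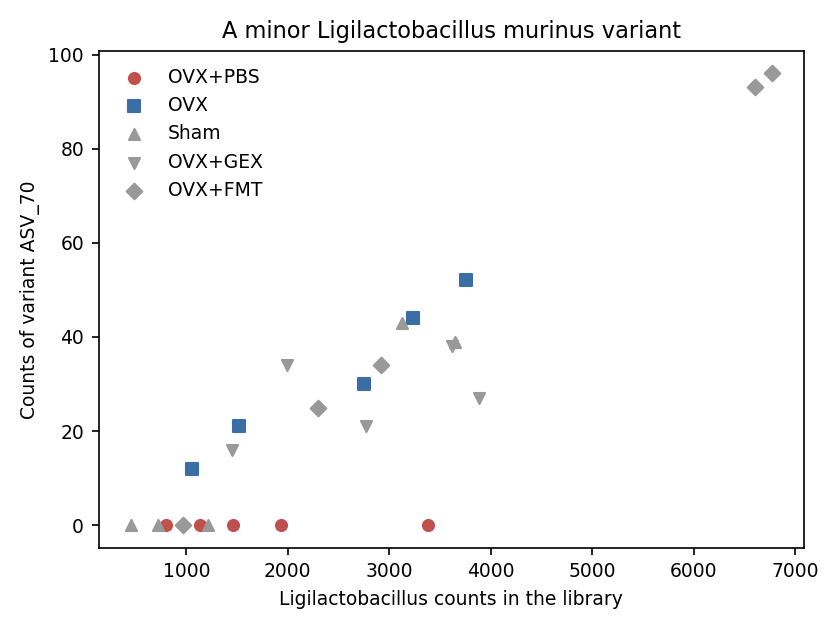
Each point is 1 of the 25 libraries, with its Ligilactobacillus counts on the x axis and its counts of the variant ASV_70 on the y axis. In OVX libraries (blue squares) ASV_70 counts run from 12 to 52, and the 5 OVX+PBS libraries (red circles) lie at 0 up to 3379 Ligilactobacillus counts.

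ASV_80, named Eubacterium coprostanoligenes, a species known for reducing cholesterol to coprostanol, had the smallest p of all ASVs. It had 127, 111, 3, 0 and 96 counts in OVX replicates 1 to 5 and 0 in OVX+PBS, at least 21.98-fold lower, with an edgeR adjusted p of 0.0659 (0.000339 to 0.186 over the alternatives; 0.0409 without OVX replicate 4). ASV_77, named Eubacterium xylanophilum after a xylan degrader, had 75, 293 and 4 counts in OVX replicates 1, 2 and 4 and 0 in OVX+PBS, at least 23.3-fold lower, or 6.14-fold without OVX replicate 2 (edgeR adjusted p = 0.106). With only these 10 libraries edgeR called ASV_77 (adjusted p = 0.00365), and also without a filter (adjusted p = 0.0405). Eubacterium as a genus averaged nearly the same in both groups, so other ASVs of the genus held its counts in OVX+PBS. Of its 15 tested ASVs 5 had higher and 9 lower estimates, beside 62.3% lower among all ASVs tested.

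Of 13 tested ASVs named after Clostridium scindens, a species known for bile acid dehydroxylation, 5 had higher and 6 lower estimates, 2 had no counts in either group, and 0 were called by edgeR in the main fit. Together they had 323, 146, 109, 7 and 3 counts in OVX+PBS replicates 1 to 5 and 86, 695, 83, 66 and 146 in OVX replicates 1 to 5, so the groups overlapped. The one with the smallest p, ASV_62, had 41, 176 and 29 counts in OVX replicates 1, 2 and 4 and 0 in OVX+PBS, at least 15.6-fold lower, or 5.66-fold without OVX replicate 2 (edgeR adjusted p = 0.106). With only these 10 libraries edgeR called ASV_62 (adjusted p = 0.0229), and also without a filter (adjusted p = 0.0362). ASV_68, chosen because its libraries did not overlap, held 0.187%, 1.35%, 0.131%, 0.0988% and 0.114% in OVX replicates 1 to 5 and at most 0.0818% in OVX+PBS (log2 fold change -3.96, SE 2.04, edgeR adjusted p = 0.225). ASV_177 of Kineothrix alysoides had 80, 18 and 4 counts in OVX replicates 2, 3 and 4 and 0 in OVX+PBS, and ASV_85 of Ruminiclostridium 124 and 9 in OVX replicates 1 and 5. Both had an edgeR adjusted p of 0.127, and ASV_85 rests on OVX replicate 1, without which its mean is below the floor.

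On the higher side, each of the 6 ASVs with the smallest p was missing from all OVX libraries and found in at most 3 of 5 OVX+PBS libraries, with an edgeR adjusted p of 0.127. ASV_47, named Ruminococcus callidus, had 304 counts in OVX+PBS replicate 4 and 0 in the other 9 libraries, and the DESeq2 call on it (adjusted p = 0.000339) rested on that library. So did the edgeR calls on ASV_47 with only these 10 libraries (adjusted p = 0.00116) and without a filter (adjusted p = 0.00483). ASV_123 of Acetivibrio straminisolvens had 50, 36 and 57 counts in OVX+PBS replicates 1 to 3, at least 8.16-fold higher, or 4.67-fold without replicate 3. ASV_331 of Ihubacter massiliensis (40, 15 and 11 counts) and ASV_384 of Lachnoclostridium (22, 28 and 3 counts) came from the same 3 libraries, at least 3.01-fold and 2.61-fold higher, the second 1.15-fold without replicate 2. The Anaerobacterium chartisolvens variants were ASV_298, with 6, 22 and 26 counts in replicates 3 to 5, and ASV_193, with 21 and 58 in replicates 1 and 3.

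OVX+PBS libraries held 585 ASVs between them and OVX libraries 710, and 334 were shared; the shared ASVs are 57.1% of the first list and 47.0% of the second. They held 91.6% of the OVX+PBS and 87.6% of the OVX counts. ASVs seen in all 10 libraries numbered 30 and held 59.2% and 54.9%. Most group-specific ASVs came from 1 library, 200 of 251 in OVX+PBS and 295 of 376 in OVX. ASVs in at least 3 libraries of 1 group and 0 of the other numbered 8 for OVX+PBS and 25 for OVX, and in at least 4 libraries 0 and 6.

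The 6 community measures did not pass adjustment. ASV richness, computed for an equal depth of 8498 counts in each library, was 337, 209, 226, 159 and 130 in OVX+PBS replicates 1 to 5 (129.98 in the last) and 234, 318, 237, 254 and 218 in OVX. OVX+PBS held both the richest and the poorest library, and its replicates 2, 4 and 5 lay below all OVX libraries. The difference of means was -40.2 (exact permutation p = 0.325, adjusted p = 0.390). Leaving out OVX+PBS replicate 1, the library with the highest total, moved the difference to -71.4 (exact permutation p = 0.0238, unadjusted). Leaving out OVX+PBS replicate 5 moved it to -19.7 (exact permutation p = 0.603, unadjusted). The Shannon index was 4.04 ± 0.408 and 4.35 ± 0.324 (SD, n = 5). Its exact permutation p was 0.246 before and 0.369 after adjustment. The 10 largest ASVs of a library held 36.0% to 68.0% of its counts in OVX+PBS and 26.0% to 49.8% in OVX.

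**Figure D5:**
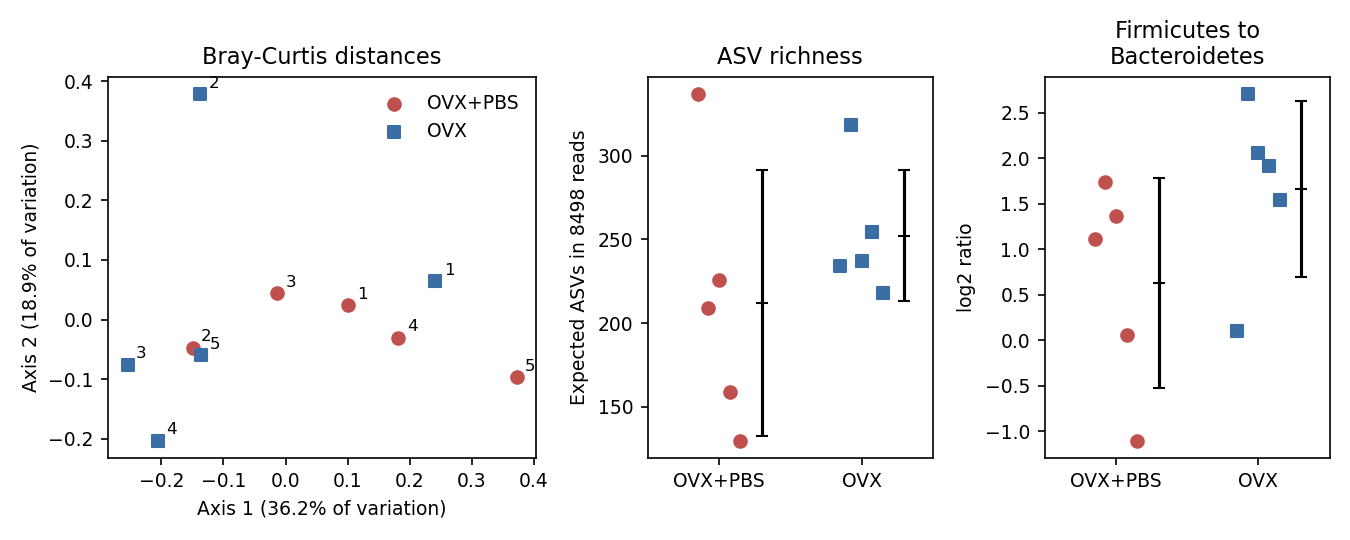
The left panel places the 10 libraries by principal coordinates of Bray-Curtis distances on ASV shares, numbered by replicate; the middle and right panels give ASV richness and the log2 Firmicutes to Bacteroidetes ratio per library, with bars for the mean and SD (n = 5). The groups overlap in all 3 panels, and OVX replicate 2 and OVX+PBS replicate 5 lie at the edges of the left one.

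PBS against no PBS accounted for R2 = 0.161 of Bray-Curtis distances, with an exact permutation p of 0.143 (0.317 adjusted). For Jaccard distances on ASV presence R2 was 0.130, with an exact permutation p of 0.0556 (0.317 adjusted). Without OVX replicate 1 the Bray-Curtis R2 was 0.245 (exact permutation p = 0.0238). The Jaccard R2 was 0.146 without OVX+PBS replicate 1 and 0.150 without OVX replicate 4, each with an exact permutation p of 0.0397. Without OVX+PBS replicate 2 it was 0.138 (exact permutation p = 0.175). All p-values with 1 library left out are unadjusted. The median Bray-Curtis distance was 0.448 between OVX+PBS libraries, 0.518 between OVX libraries and 0.511 between the groups, so that libraries of different groups were as near to each other as OVX libraries were among themselves. The mean distance of a library to the other 4 of its group was 0.454 ± 0.0431 for OVX+PBS against 0.497 ± 0.0606 for OVX (SD, n = 5), with an exact permutation p of 0.516. OVX+PBS replicate 2 was nearer on average to the OVX libraries (0.426) than to its own group (0.469), and OVX replicate 1 nearer to OVX+PBS (0.443) than to its own (0.562). The smallest exact p that 5 against 5 libraries allow is 0.00794, and a p above the threshold does not show that the groups were alike.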

How the data were processed

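The authors deposited 1 table of read counts per ASV and library with a 7-rank taxonomy, made from a BIOM file, per the file headers. The submitters' processing notes name Subread without saying what it did; the sources used here state no denoiser, primer set or taxonomy database. The deposited counts hold 0 values of 1 and 464 of 2. Columns were matched to samples by name, and 5 columns spelled OVX+GES were taken as OVX+GEX. Group order differs between the table and the library numbers of the labels, and no match by order was used.

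Counts were summed per genus and family and tested with edgeR 4.0.16 in R 4.3.3 (quasi-likelihood, TMM, all 25 libraries in 1 fit, taxa with 3 or more counts in 5 or more libraries, Benjamini-Hochberg at 0.05). DESeq2 1.42.0 and limma 3.58.1 (0.5 added to each count), other scalings and filters, and left-out libraries were alternatives. Standard errors come from the F statistic. Single values were compared by exact two-sided permutation over 252 splits, one-sided for R2; Jaccard distances averaged 20 draws of 8498 counts. The code was tested on simulated data. Taxa named are phyla of 1% or more, the genera with the smallest unadjusted p under 0.05 (10 each way at most), the 10 most abundant genera, genera without overlap, the 6 ASVs each way with the smallest p, and the 6 most abundant. Members and lists were chosen with earlier results of these data known. The labels name no cage, litter or batch; p-values therefore cover only variation among these samples, which may be technical. Floors cover counting error only.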

Additional observations from a re-analysis of the deposited data

Results flagged for a closer look

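In 10 of the 50 sets of 5 libraries examined, 1 library stood apart by Dixon's test at the 95% level, which flags about 1 in 20 by chance; the sets are not independent of each other, and sets with mostly zeros are flagged by 1 library with counts. OVX replicate 2 had a Shannon index of 4.92 against 4.13 to 4.29 in the other 4 OVX libraries. The same library held 6.46% Eubacterium (others 0.938% to 2.45%), 10.3% Lachnoclostridium (others 0.869% to 2.44%), 0.560% Neglecta (others at most 0.142%) and 0.181% Tyzzerella (others at most 0.0326%). OVX replicate 3 held 0.501% Rossellomorea (others at most 0.0519%). OVX replicate 4 was the 1 OVX library with Shigella (0.0296%) and with Fournierella (0.0198%). In OVX+PBS, replicate 5 held 1.11% Shigella (others at most 0.269%) and replicate 2 held 0.311% Fournierella (others at most 0.0340%).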

How the results depend on the processing

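The count of genera called was 0 under all alternatives but DESeq2's Wald test, which gave 1. The count of ASVs called, 0 by the main setting, was 2 with TMMwsp, 5 by DESeq2, 6 without a filter, 2 with at least 10 counts in 5 libraries, 4 with only the 10 libraries, and 0 to 1 with 1 library left out. Families called were 1 by limma, 4 with only the 10 libraries, and 0 to 1 with 1 library left out; the cause of these shifts was not tested. With 1 library left out, the difference in richness ran from -71.4 to -19.7, in Shannon index from -0.41 to -0.16, and in the log2 Firmicutes to Bacteroidetes ratio from -1.42 to -0.60. The Bray-Curtis R2 ran from 0.140 to 0.245, the Jaccard R2 from 0.137 to 0.150, and the difference in distance within the group from -0.0884 to 0.0014. Deviations of same-numbered libraries correlated from -0.214 to 0.0686, and those of libraries with different numbers from -0.279 to 0.274. So few values cannot decide whether a replicate number stands for a shared cage or run. With the replicate block the counts of called genera, ASVs and families stayed at 0, with 9, 59 and 5 at an unadjusted p under 0.05. Within pairs the smallest possible exact p is 0.0625. Genera with under 3 counts in a library cannot be told from 0 at this depth.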
